A study of Mus musculus with 8 samples.

Results

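The LY6 surface proteins were followed through mRNA and translation in resting B and T lymphocytes of mouse spleen. The members were the listed genes Ly6a, Ly6c1, Ly6c2, Ly6d and Ly6e, found by Ensembl ID and symbol, which makes 5 of the 53801 genes counted. Cells came from B6 mice, were isolated with magnetic kits and spent 2 hours in culture in RPMI-based medium. No group carried a genetic change, and the sources used here give neither the ages of the mice nor any pooling of animals. Each cell type was measured by RNA-seq and by ribosome profiling, in which the pieces of mRNA that ribosomes shield from nuclease, called footprints, are sequenced. Cells for footprints, of both types alike, also received cycloheximide at 100 µg/ml for 15 minutes. There were 2 libraries in each of the 4 groups, numbered 1 and 4 for T cell mRNA, 1 and 2 for T cell footprints, and 1 and 3 for either kind of B cell library.

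LY6 proteins are small, disulphide-bonded domains held on the outer face of the plasma membrane by a glycosylphosphatidylinositol (GPI) lipid anchor. They serve widely as surface markers of blood cell lineages and stages. Ly6a encodes Sca-1, the marker used to sort mouse haematopoietic stem cells, and it is induced by interferon. Ly6e encodes TSA-1, or Sca-2, first known from immature thymocytes and also interferon-inducible. Ly6d encodes ThB, which marks lymphoid progenitors that turn to the B lineage and stays on B cells. Ly6c1 and Ly6c2 are closely similar copies that together make the Ly6C antigen, used to mark monocytes, plasma cells and subsets of T cells.

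All 5 genes lie in a cluster on chromosome 15 of GRCm38.p6. In order they are Ly6d (ENSMUSG00000034634, 74762056 to 74763567), Ly6e (ENSMUSG00000022587, 74955025 to 74959904), Ly6a (ENSMUSG00000075602, 74994877 to 74998031), Ly6c1 (ENSMUSG00000079018, 75044018 to 75048920) and Ly6c2 (ENSMUSG00000022584, 75108161 to 75112066). In the RefSeq annotation only Ly6a overlaps another gene, the long noncoding Gm28068, which had at most 17 counts in a library.

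The libraries held 8945905 to 10050986 counts in RNA-seq and 136433 to 627833 in footprints, so that 1 count stood for 0.0995 to 0.112 CPM in RNA-seq and for 1.59 to 7.33 CPM in footprints. CPM are counts scaled to a common library size, and those of genes below use totals corrected by the TMM factor. Markers followed the labels. Ms4a1, the gene of the B cell protein CD20, had 995 and 1042 CPM in B cell mRNA and 5.68 and 21.2 in T cell mRNA. Cd3e, which encodes part of the T cell receptor complex, had 3.81 and 35.7 CPM in B cell mRNA and 373 and 433 in T cell mRNA. B cell mRNA library 3 stood apart in T lineage genes. The median of 24 T cell identity genes was at 10.4% of its T cell level in that library and at 0.725% in B cell library 1. In the mRNA test Cd3e did not pass, at a log2 difference of -4.35 ± 1.06 (SE, edgeR adjusted p = 0.0534). By that test 5 of the 24 were called lower in B cells, and 20 of 20 B cell identity genes higher. Over all genes 9.06% were lower and 9.40% higher. In footprints 23 of the 24 were called lower, beside 4.80% of all genes. Of the RNA-seq libraries, the ones numbered 1 had 2362 (B cells) and 1437 (T cells) counts of Xist and at most 8 of 4 Y-linked genes, and the others had at most 3 of Xist and at least 1575 Y-linked counts. In footprints the Y-linked genes had 72 and 53 counts in B cell libraries 1 and 3, and 3 and 35 in T cell libraries 1 and 2, so that B cell library 1 was low in these genes in mRNA and not in footprints. The sex-linked split thus differs between the assays in B cells and between the cell types in footprints, and its part in the footprint and efficiency results was not tested. In these bulk samples, fewer cells that express a gene and less RNA of it per cell cannot be told apart.

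The LY6 genes were divided between the lineages. In mRNA, 2 of the 5 (Ly6d and Ly6e) were higher and 2 (Ly6c1 and Ly6c2) lower in B cells, and Ly6a was not called. Over all 13929 genes tested, 9.40% were called higher and 9.06% lower by the same rule, an adjusted p under 0.05 in edgeR's quasi-likelihood test. In footprints 4 of the 5 had enough counts to be tested, of which 2 (Ly6d and Ly6e) were higher and 1 (Ly6c2) was lower, beside 8.38% and 4.80% of 4771 genes. The median log2 difference was 0.99 over the 5 members and -0.01 over all genes in mRNA. The 4 tested in footprints had the same sign in both assays, and the share of all genes with the same sign was not computed.

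**Figure D1:**
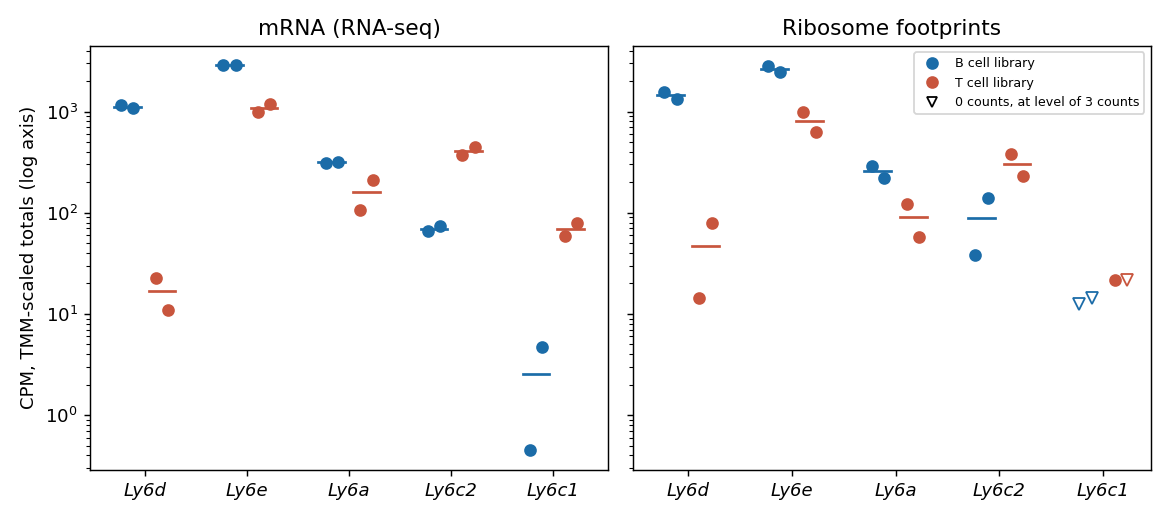
Levels of the 5 LY6 genes in each library, in CPM with TMM-scaled totals on a log axis, for mRNA (left) and footprints (right). Each point is a library, a bar the mean of 2 libraries with counts, and an open triangle a library with 0 counts drawn at the level of 3 counts; B cell points lie above T cell points for Ly6d, Ly6e and Ly6a and below them for Ly6c2, in both assays.

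Ly6d was high in every B cell library and low in every T cell library. Its mRNA reached 1169 and 1074 CPM in B cell libraries 1 and 3, against 22.6 and 10.9 CPM in T cell libraries 1 and 4. The groups were far apart, with a log2 difference of 6.06 ± 0.45 (SE; edgeR adjusted p = 0.00417), a 66.9-fold difference. Its footprints stood at 1555 and 1336 CPM in B cells (368 and 279 counts). In T cells they stood at 14.5 and 79.7 CPM in libraries 1 and 2 (10 and 11 counts). Both B cell libraries lay above both T cell libraries again, at a log2 difference of 5.34 ± 0.72 (edgeR adjusted p = 0.00057). The T cell level differed between its libraries, so that the size of the difference moved with them. The log2 difference was 6.69 without T cell mRNA library 1, 4.13 without T cell footprint library 1 and 6.56 without T cell footprint library 2, and it passed the test each time.

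The low Ly6d signal in T cells was of the size of other B lineage genes there. In T cell mRNA libraries 1 and 4 Ly6d reached 2.02% and 0.968% of its B cell mean. The median of 20 B cell identity genes reached 0.931% and 1.60% in the same libraries. In T cell footprint libraries 1 and 2 Ly6d reached 1.0% and 5.52%, against medians of 1.55% and 4.60%. Ly6d thus lay above 17 and 1 of the 20 identity genes in the mRNA libraries and above 5 and 13 in the footprint libraries. In mRNA it was higher in the library in which the median was lower. In footprints, on 10 and 11 counts, it was higher in the library in which the median was higher too. The plasma cell list of 9 genes summed to 1199 and 146 CPM in T cell mRNA libraries 1 and 4, and the dendritic cell list of 13 genes to 211 and 174 CPM, with Tnfrsf17 of the first list and Siglech and Klk1 of the second at 0 counts in library 4. Whether such cells were present, and their part in the Ly6d signal, was not tested.

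**Figure D2:**
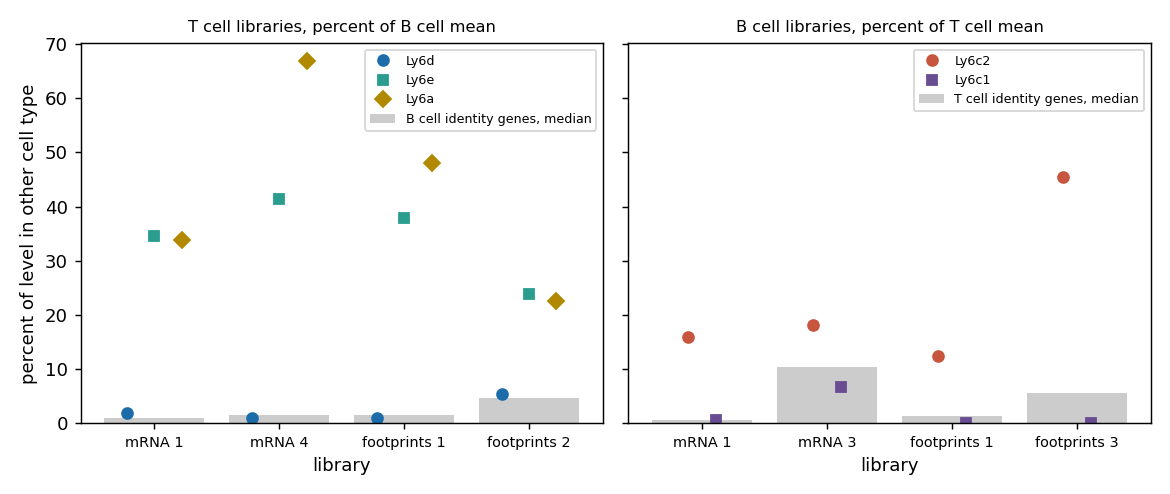
Level of each LY6 gene in the libraries of the cell type where it is lower, as a percent of its mean in the other cell type, with grey bars for the median of the identity genes of that other cell type. Ly6d, and Ly6c1 in mRNA, lie near the grey bars, while Ly6e and Ly6a in T cells (22.7% to 66.8%) and Ly6c2 in B cells (12.5% to 45.5%) lie above them in every library. Ly6c1 had 0 counts in both B cell footprint libraries and is drawn at 0% there. Its limits in them, 12.7 and 14.4 CPM, lie above its T cell mean of 10.8 CPM, so its percent in footprints was not measured.

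Ly6e was well measured in both lineages and higher in B cells. B cell libraries 1 and 3 had 2874 and 2872 CPM of its mRNA, and T cell libraries 1 and 4 had 992 and 1190. The B cell libraries were nearly equal and well above the T cell ones, at a log2 difference of 1.40 ± 0.19 (2.63-fold; edgeR adjusted p = 0.0148). Footprints stood at 2797 and 2467 CPM in B cells against 999 and 631 in T cell libraries 1 and 2, also without overlap. Their log2 difference was 1.68 ± 0.50 (3.20-fold; edgeR adjusted p = 0.0465). The call on footprints lay close to the threshold and was lost without T cell library 1 (2.02 ± 0.75, adjusted p = 0.0825) or library 2 (1.34 ± 0.69, adjusted p = 0.290) and under upper-quartile scaling (1.62 ± 0.49, adjusted p = 0.0527). T cells held 34.5% and 41.4% of the B cell mRNA level, more than any of the 20 B cell identity genes, which reached at most 15.5% and 17.2%.

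Ly6a had more mRNA and footprints in every B cell library than in any T cell library, but did not pass the test in either assay. The mRNA of this stem cell and activation marker stood at 313 and 319 CPM in B cell libraries 1 and 3. T cell libraries 1 and 4 had 107 and 211 CPM, a wider gap between libraries of 1 group than for Ly6e. The log2 difference was 0.99 ± 0.35 (95% interval 0.09 to 1.89; edgeR adjusted p = 0.126). Without T cell library 4 it was 1.55 ± 0.25 and passed (adjusted p = 0.0196), and without T cell library 1 it was 0.58 ± 0.22 (adjusted p = 0.161). DESeq2, with all 4 libraries, called it (0.99 ± 0.35, adjusted p = 0.0249).

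The footprints of Ly6a rested on few counts, with 69 and 46 in the B cell libraries against 85 and 8 in the T cell libraries. They amount to 291 and 220 CPM in B cell libraries 1 and 3 and to 123 and 58.0 CPM in T cell libraries 1 and 2. The log2 difference was 1.37 ± 0.43 (95% interval 0.43 to 2.31; edgeR adjusted p = 0.0584), and it passed without B cell library 3 (1.52 ± 0.43, adjusted p = 0.0045). It did not pass without B cell library 1 (1.11 ± 0.45, edgeR adjusted p = 0.0927), T cell library 1 (2.09 ± 0.76, adjusted p = 0.0690) or T cell library 2 (1.0 ± 0.61, adjusted p = 0.450). T cell mRNA libraries 1 and 4, between which Ly6a differed, also differed in other measures. The 46 interferon-stimulated genes summed to 2935 and 3690 CPM in them. The 15 monocyte and macrophage markers summed to 107 and 771 CPM, with Fcgr1 at 0 counts in library 1. The sex-linked counts given above differed as well. With that split, library 1 against the other, as a term in the model, the log2 difference of Ly6a mRNA was 1.07 ± 0.27 (edgeR adjusted p = 0.0538), and the other 4 members were called as before. The part of the marker and interferon lists in the level of Ly6a was not tested.

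Ly6c2 was lower in B cells, though counted in every B cell library. T cell libraries 1 and 4 had 371 and 447 CPM of its mRNA, and B cell libraries 1 and 3 had 65.5 and 74.1. The groups did not overlap, and the log2 difference was -2.55 ± 0.18 (5.86-fold lower in B cells; edgeR adjusted p = 0.00372). With RNA-seq thinned to the depth of the smallest set of footprints it was -3.26 ± 0.43. Footprints stood at 379 and 232 CPM in T cell libraries 1 and 2 (262 and 32 counts). B cell libraries 1 and 3 had 38.0 and 139 CPM (9 and 29 counts), so that the ratio between the B cell libraries was larger than that between the T cell libraries. The log2 difference of the footprints was -1.84 ± 0.54 (edgeR adjusted p = 0.0445). It was lost without B cell library 1 (-1.19 ± 0.50, adjusted p = 0.121), without T cell library 1 (-1.45 ± 0.63, adjusted p = 0.175), in DESeq2 (-1.82 ± 0.68, adjusted p = 0.0715) and with all 8 libraries in a single fit (-1.91 ± 0.53, adjusted p = 0.0966), and was -3.05 ± 0.59 without B cell library 3.

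In B cell mRNA the level of Ly6c2 differed less between libraries than that of the T lineage genes. It was at 16.0% and 18.1% of its T cell mean in libraries 1 and 3, whereas the median T cell identity gene went from 0.725% to 10.4%. In B cell footprint libraries 1 and 3, on 9 and 29 counts, Ly6c2 was at 12.5% and 45.5%. The median there went from 1.30% to 5.68%, so both were higher in library 3. Of the 24 T cell identity genes 23 lay below Ly6c2 in each B cell library of both assays, Cd2 being the exception. Marker genes of other cells that carry Ly6C had counts too. Plasma cell markers summed to 2532 and 976 CPM in B cell mRNA libraries 1 and 3. Monocyte and macrophage markers summed to 86.6 and 325 CPM in the same libraries, with Fcgr1 at 0 counts in library 1. Natural killer cell markers (14 genes) summed to 75.7 and 179 CPM in B cell mRNA and to 565 and 764 CPM in T cell mRNA. In B cell footprint libraries 1 and 3, natural killer markers summed to 139 and 944 CPM, with 8 and 13 genes counted. Plasma cell markers there summed to 2121 and 4114 CPM. Neutrophil markers (12 genes) summed to 12.7 and 805 CPM, with 3 and 8 genes counted. Monocyte and macrophage markers went the other way, at 790 and 527 CPM. Whether such cells were present, and their part in the Ly6c2 level, was not tested.

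Ly6c1 was lower in B cells in mRNA. Its mRNA stood at 59.1 and 79.0 CPM in T cell libraries 1 and 4 (583 and 749 counts). B cell library 1 had 4 counts, or 0.448 CPM, and B cell library 3 had 43 counts, or 4.69 CPM. The log2 difference was -4.73 ± 0.89 (edgeR adjusted p = 0.0289), -7.22 ± 0.45 with B cell library 3 left out and -3.87 ± 0.33 with library 1 left out. The 0.649% and 6.79% of the T cell level in B cell libraries 1 and 3 moved together with the T cell identity genes, whose medians were 0.725% and 10.4%. Of those 24 genes 10 lay below Ly6c1 in library 1 and 0 in library 3. Footprints of Ly6c1 were found only in T cell library 1, with 15 counts or 21.7 CPM, and all 3 other footprint libraries had 0 counts, which allows up to 12.7 and 14.4 CPM in B cell libraries 1 and 3 and 21.7 in T cell library 2. Each B cell limit lies above the T cell mean of 10.8 CPM, whereas 3 counts over both B cell libraries together would be 6.73 CPM. That T cell mean rests on the 15 counts of 1 library, so no fold is given, and no test was made.

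The make-up of the Ly6C counts differed between the cell types. Of the mRNA counts of Ly6c1 and Ly6c2 together, Ly6c1 took 13.8% (exact 95% binomial interval 12.7% to 14.8%) in T cell library 1 and 15.0% (14.0% to 16.0%) in library 4. In B cells it took 0.679% (0.185% to 1.73%) in library 1 and 5.96% (4.34% to 7.94%) in library 3, so that both intervals lay below those of T cells. In T cell footprint library 1 the share was 5.42% (3.06% to 8.77%), below that of T cell mRNA. The other footprint libraries had 0 of 9, 0 of 29 and 0 of 32 counts, with upper limits of 33.6%, 11.9% and 10.9%. The intervals cover counting error only. The sources used here do not say how reads that match both copies were counted, so the split between Ly6c1 and Ly6c2, in footprints above all, is uncertain.

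**Figure D3:**
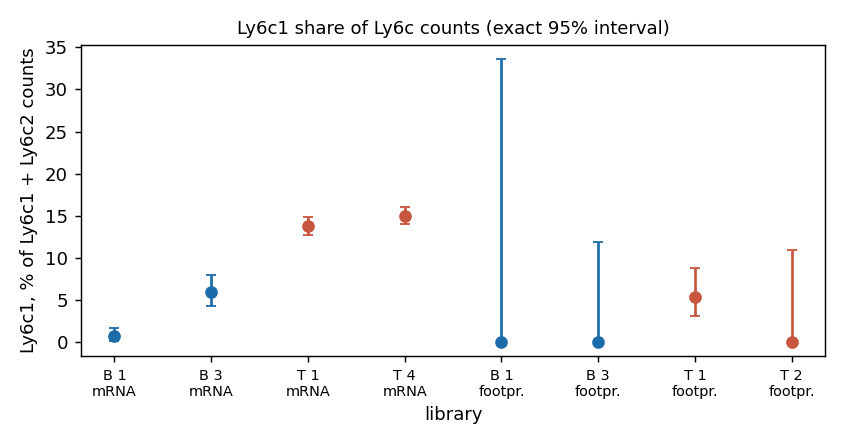
Share of Ly6c1 in the summed counts of Ly6c1 and Ly6c2 for each of the 8 libraries, in percent, with exact 95% binomial intervals as bars. T cell mRNA libraries sit at 13.8% and 15.0%, above B cell mRNA libraries at 0.679% and 5.96%; the footprint libraries rest on 9 to 277 counts.

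The promoter table of RefSeq (GRCm38.p6) has entries for Ly6c1 and Ly6c2, the pair that was higher in T cells, and it is shown here to let the copies be compared. It has no entry for Ly6a, Ly6d or Ly6e, so the motifs below were not searched for in those genes. Each stretch begins beyond the outermost annotated end of its gene and is given 5′ to 3′ on the minus strand, from chr15:75048921-75049087 for Ly6c1 and chr15:75112067-75112221 for Ly6c2. Capitals mark a TATAAA match.
Ly6c1: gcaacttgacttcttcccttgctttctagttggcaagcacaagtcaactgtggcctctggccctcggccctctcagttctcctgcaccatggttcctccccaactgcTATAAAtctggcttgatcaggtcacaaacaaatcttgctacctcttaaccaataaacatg
Ly6c2: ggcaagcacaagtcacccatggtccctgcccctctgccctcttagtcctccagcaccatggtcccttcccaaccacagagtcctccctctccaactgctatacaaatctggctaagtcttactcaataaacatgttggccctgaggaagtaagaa
Over 130 aligned positions without gaps, 102 (78.5%) were identical. The TATAAA of Ly6c1 lies 143 bases before the start at 75048837, which is 1 of 2 starts in the table and lies inside the outermost annotated end of the gene. The window of the other start, at 75048663, holds no match. Of all 32851 promoters listed there, 13.6% hold this motif on either strand. The table's windows for both genes, 2 each and reaching from 250 bases before the start to 50 after it, were also searched on both strands for other motifs. These were the core of the interferon response element (GAAA and GAAA with any 2 bases between them), a STAT site (TTCNNNGAA) and a composite of ETS and IRF sites (GGAA and GAAA with any 2 bases between them), the last of which can overlap the first. None was found in the 4 windows, while 3.44%, 8.30% and 2.72% of all promoters hold them.

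Translational efficiency, the footprints of a gene relative to its mRNA, was then compared between the lineages. For the members it gave no call. The log2 difference in efficiency, B over T cells, was 0.37 ± 0.61 for Ly6a (95% interval -1.03 to 1.77) and 0.28 ± 0.49 for Ly6e (-0.84 to 1.39). It was 0.69 ± 0.69 for Ly6c2 (-0.89 to 2.27) and -0.64 ± 0.85 for Ly6d (-2.59 to 1.30). The intervals span differences of more than 2-fold in both directions for Ly6a and Ly6d, and toward higher efficiency in B cells for Ly6e and Ly6c2. Differences of that size in these directions are thus not excluded. The adjusted p was at least 0.951 for these 4 genes in edgeR. Across 13227 genes 0.00% were called higher and 0.00% lower, although 748 had an unadjusted p under 0.05. DESeq2 called 10 genes and limma voom 0, no LY6 member among them. Ly6c1 had no B cell footprint, so that no efficiency could be estimated there.

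**Figure D4:**
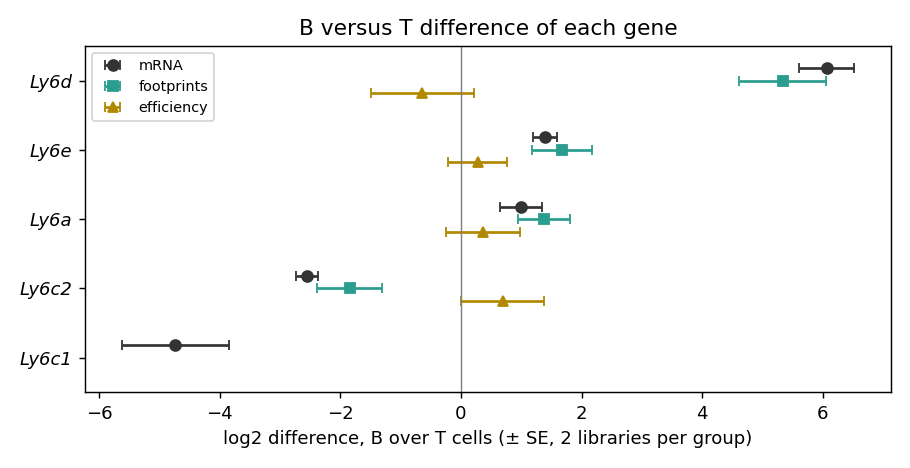
Log2 difference of B over T cells for each LY6 gene in mRNA, footprints and translational efficiency, with bars of 1 SE from 2 libraries per group. The mRNA and footprint points of a gene lie on the same side of 0 and the efficiency points between -0.64 and 0.69; Ly6c1 has only an mRNA point.

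Footprints were also set against mRNA within each cell type, where no member was called. In B cells the log2 ratio was 0.28 ± 0.52 for Ly6d, 0.23 ± 0.52 for Ly6c2, -0.21 ± 0.35 for Ly6e and -0.39 ± 0.43 for Ly6a, beside a median of -0.44 over all genes. In T cells it was 0.92 ± 0.68 for Ly6d, -0.46 ± 0.46 for Ly6c2, -0.49 ± 0.35 for Ly6e, -0.75 ± 0.44 for Ly6a and -2.11 ± 0.97 for Ly6c1, beside a median of -0.54. None passed the edgeR test (adjusted p = 0.142 for Ly6c1 in T cells, and at least 0.228 for the rest), where 6.51% of genes were called higher and 12.3% lower in B cells, and 8.91% higher and 18.6% lower in T cells. Ly6c1 was called in T cells when either B cell mRNA library was left out (adjusted p = 0.0371 without library 1 and 0.0351 without library 3), with 15 counts in 1 T cell library behind its footprints.

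Few other genes of the LY6 and urokinase receptor family were measured. Of 19 relatives at the chromosome 15 locus 4 were tested in mRNA. Lynx1, a modulator of acetylcholine receptors, was higher in B cells, with 79.9 and 105 CPM in B cell libraries 1 and 3 against 3.35 and 3.48 in T cell libraries 1 and 4 (4.75 ± 0.21, edgeR adjusted p = 0.00201). Its footprints were scarce, at 7 and 2 counts in B cells, and lay below its mRNA there (log2 ratio -2.28 ± 0.47, edgeR adjusted p = 0.0130). Ly6k (1.13 ± 0.36), 2010109I03Rik (1.51 ± 0.61) and I830127L07Rik (0.11 ± 0.66) did not pass. Ly6g, the neutrophil marker, had 1 count in all 8 libraries together, and Ly6i, a close copy of Ly6a and Ly6c, had at most 8 in a library.

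Of 25 relatives elsewhere in the genome 3 were tested in mRNA, and 1 was called higher and 2 lower in B cells, beside 9.40% and 9.06% of all genes. Plaur, the urokinase receptor, stood at 183 and 143 CPM in B cell libraries 1 and 3, against 11.2 and 7.27 CPM in T cell libraries 1 and 4 (4.14 ± 0.28, edgeR adjusted p = 0.00337). It was also higher in footprints, at 156 and 302 CPM against 20.2 and 7.25 (3.70 ± 0.56, edgeR adjusted p = 0.00106). Ly6g5b (-2.42 ± 0.48) and Lypd6b (-4.61 ± 1.06) were lower in B cells. Lypd6b had 214 and 206 counts in T cell mRNA, 0 and 16 in B cell mRNA, and no footprint in any library.

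Of the machinery that builds and attaches the GPI anchor, 1 gene was called between the lineages in each assay. Among 30 genes of the list 28 were tested in mRNA, of which 1 was higher and 0 lower in B cells, with a median log2 difference of 0.02. Over all genes 9.40% were higher and 9.06% lower. The called gene was Pgap1, which removes an acyl chain from the anchor after attachment, at 57.5 and 48.5 CPM in B cell libraries 1 and 3 against 7.91 and 14.0 in the T cell ones (2.27 ± 0.32, edgeR adjusted p = 0.0153). It was also the 1 gene called among 4 tested in footprints (2.04 ± 0.55, edgeR adjusted p = 0.0290). Over all genes in footprints 8.38% were higher and 4.80% lower.

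Other GPI-anchored proteins of lymphocytes were called in both directions. Of 14 tested in mRNA 2 were higher and 4 lower in B cells (median -0.68), and of 8 tested in footprints 2 were higher and 3 lower (median 0.34). The shares over all genes were 9.40% and 9.06% in mRNA and 8.38% and 4.80% in footprints. Cd24a, the heat-stable antigen, was higher in mRNA (5.68 ± 0.33) and footprints (4.73 ± 0.51), and so was Cd55, which guards cells against complement (2.64 ± 0.17 and 2.58 ± 0.47). Nt5e, the ectonucleotidase CD73, was lower in both (-3.44 ± 0.19 and -3.20 ± 0.84). Izumo1r, the folate receptor FR4 of regulatory T cells, was lower in mRNA (-3.89 ± 0.63) and had 0 footprint counts in B cells against 66 and 16 in T cells. Thy1, a defining T cell antigen, was lower in footprints (-4.42 ± 0.74, edgeR adjusted p = 0.00184), with 7 and 839 mRNA counts in B cell libraries 1 and 3.

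Genes induced by interferon, a class to which Ly6a and Ly6e belong, were called in both directions in mRNA. Of 45 tested in mRNA 4 were higher and 11 lower in B cells, with a median of -0.27, beside 9.40% higher and 9.06% lower over all genes. Stat2, a subunit of the interferon-activated transcription factor, was higher (1.01 ± 0.11), as was Oasl1 (1.71 ± 0.23). Gbp2, a guanylate-binding protein (-1.46 ± 0.16), and Ifih1, the RNA sensor MDA5 (-2.50 ± 0.29), were lower. In footprints 0 of 23 were higher and 2 lower, Oas3 (-3.37 ± 0.89) and Lgals3bp (-1.64 ± 0.45). Over all genes in footprints 8.38% were higher and 4.80% lower. At an unadjusted p under 0.05 in edgeR, 5 of the 23 passed in footprints, where 1132 of all 4771 genes did, and 22 of the 45 in mRNA, where 4522 of 13929 did.

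The genes most like each member were taken as those with the smallest root mean square difference of log2 CPM, centred within each assay, over the 8 libraries among 4509 genes. For Ly6d they were Fcrla (0.31), Chst3 (0.40) and Bcar3 (0.45), of which Fcrla encodes an Fc receptor-like protein of B cells. For Ly6e they were Vars, the valyl-tRNA synthetase (0.13), Epn1 (0.14) and Tmem131l (0.16). For Ly6a they were Mndal (0.19), a gene of the interferon-inducible p200 family, P2ry10b (0.20) and Fh1 (0.21), and for Ly6c2 Ehd3 (0.24), Il6st (0.29) and Faah (0.30). Ly6c1 was compared over the 4 RNA-seq libraries with 11456 genes, and the closest were Lcn4 (0.12), Cd3e (0.15) and Cd27 (0.15), the last 2 being T cell surface proteins. These distances are descriptions over libraries of 2 cell types and carry no test.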

How the data were processed

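The authors deposited raw counts per Ensembl gene, 1 file per library, on the mm10 build. FastQC, Bowtie2, TopHat and HTSeq are listed, without versions, per the submitters' processing notes. The sources used here do not give the counted feature, strand, annotation release or treatment of reads that match several genes. Symbols were matched for 53620 of 53801 IDs; positions come from RefSeq (GRCm38.p6). Count columns left unused numbered 0.

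Counts were tested with edgeR 4.0.16 (R 4.3.3): quasi-likelihood test, TMM scaling, filterByExpr (minimum count 10, total 15), Benjamini-Hochberg adjustment over all genes tested. B and T cells were compared in the 4 libraries of each assay (2 residual degrees of freedom), and efficiency in a model of all 8 (4 residual degrees of freedom). The ± sign precedes the standard error of log2 differences. Libraries of a group differed by more than sampling noise, and p-values rest on that spread. The labels do not name separate animals; the sex-linked counts show that the mRNA libraries of a group did not come from a single animal, and for footprints of B cells a technical spread cannot be told apart. Gene lists are described by counts and medians. Genes named outside the members were, per list, up to 2 per direction with the smallest p among those passing, the tested relatives, and the 3 nearest genes of each member; Ms4a1 and Cd3e served as label checks. Ly6g, Ly6i, Gm28068, Xist, Cd2 and the markers given at 0 counts were named after their values were seen. Members and lists were chosen with earlier results of these data known. Scripts were tested on simulated data. Alternatives used DESeq2 1.42.0, limma 3.58.1 (voom), other scaling, filters and depth, a replicate block, and each library left out. The table of proteins and the coding lengths planned for comparing members were not used here, so levels are compared within a gene only.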

Additional observations from a re-analysis of the deposited data

How the results depend on the processing

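Of 148 counts of called genes or members under an alternative, 131 stayed within 1.5 times the count reported. Those kept include counts of 0 that stayed at 0, as for members in efficiency and in footprints over mRNA. They also include a fall from 3 members to 2 in footprints, though a call was lost there. In mRNA 2572 genes were called, 525 with RNA-seq thinned to the depth of the smallest set of footprints and 1455 to 1973 with a library left out; 4 or 5 members were called in the latter. In footprints 629 genes were called, 415 to 898 with a library left out, with 1 to 4 members. For efficiency, DESeq2 called 10 genes. Footprints over mRNA gave 2484 calls in B cells (1043 thinned, 1281 to 2571 with a library left out) and 3642 in T cells (1273 thinned, 947 to 4154 with a library left out, with 0 or 1 member). With a replicate block, efficiency gave 87 calls and footprints over mRNA in T cells 1684, none of them a member; the block was run for efficiency and for footprints over mRNA only, where it changed no call on a member. The B cell numbers 1 and 3 occur in both assays, and deviations of same-numbered libraries correlated at 0.45 across 13227 genes, but the labels do not say that a number marks an animal. B cell library 1 had 8 Y-linked counts in mRNA and 72 in footprints, so its number does not mark a single animal. The B cell side of the values with the block thus rests on a pairing that these counts go against. On the T cell side only the libraries numbered 1 are paired, with 6 Y-linked counts in mRNA and 3 in footprints. Thinning RNA-seq left Ly6c1 without a test in mRNA, since it fell under the count filter.

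Signs of the efficiency values, none of which passed the test, were not stable. With the replicate block the difference was -0.59 for Ly6a, 0.93 for Ly6d and -0.22 for Ly6e. With a library left out it ran from -0.20 to 1.17 for Ly6a, -0.54 to 1.21 for Ly6c2, -1.88 to 0.39 for Ly6d and -0.19 to 0.67 for Ly6e. In T cells only number 1 occurs in both assays. With the block, the T cell ratio and the T cell side of efficiency thus rest on library 1 of each assay alone. The T cell ratio of footprints to mRNA with the block was 0.20 for Ly6a, 0.026 for Ly6c2, -0.65 for Ly6d and 0.0043 for Ly6e. Without the block, that of Ly6d ran from -0.13 to 2.12 with a library left out. In B cells the ratio of Ly6a was 0.073 thinned, and that of Ly6c2 was -0.00086 in limma voom and ran from -0.98 to 0.87 with a library left out. The cause was not tested. RLE scaling moved the median ratio over all genes from -0.44 to -0.34 in B cells and from -0.54 to -0.42 in T cells. The B over T differences of the 4 members tested in both assays and of Ly6c1 in mRNA kept their sign in every alternative. With 1 library left in a group, that library is assumed to vary like the others.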
